A study of Mus musculus with 12 samples.

Results

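Proteasome subunit genes were followed in 2 muscles of dysferlin-deficient and control mice. They were taken as every probe set whose only platform symbol begins with Psm, a letter from a to g and a digit, without the cytokine-inducible subunits Psmb8, Psmb9 and Psmb10 and the activator subunit Psme1. This gave 53 of the 12422 probe sets that are not array controls, for 42 gene symbols. Of these, 51 probe sets for 41 genes passed the filter on low intensities and were tested among the 10331 probe sets that passed it. The 51 held 18 probe sets of the 20S core (14 genes), 25 of the 19S regulator (20 genes), 2 of the activators Psme3 and Psme4 and 5 of the assembly chaperones Psmg1 to Psmg4. The remaining one belonged to Psme3ip1, which matches the symbol pattern but encodes a protein that binds an activator and is no subunit. The 2 probe sets left untested were 1 for Psmc3ip, likewise no subunit, and 1 of the 3 for Psmb4; both were at or below the intensity floor on all 12 arrays. The rule reads gene symbols and no intensity, but the set was taken up with earlier results of these data known.

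The proteasome degrades proteins that carry ubiquitin chains. Its 20S core is a barrel of stacked rings: outer rings of alpha subunits (Psma genes) gate the entrance, and inner rings of beta subunits (Psmb genes) hold the protease sites. The 19S regulator caps the barrel. Its base contains a ring of ATPases (Psmc genes) that unfold and thread the substrate, and its lid and ubiquitin receptors (Psmd genes) bind the substrate and remove ubiquitin. In skeletal muscle this system carries much of the turnover of contractile protein, and in wasting muscle its genes are known to rise together.

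Total RNA of skeletal muscle from 3-week-old mice was hybridised to Affymetrix arrays, with 3 arrays in each of 4 groups. Dysf_null_QF and Dysf_null_TA were the QF and TA muscles of C57BL/10-SJL.Dysf mice, labelled Dysf -/-, and Control_QF and Control_TA were the same muscles of C57BL/10 mice, labelled Dysf +/+. QF and TA are read as quadriceps femoris, the proximal muscle, and tibialis anterior, the distal one. The title of the series asks whether dysferlin deficiency changes the proximal-distal difference. Dysferlin sits in the fibre membrane and serves in its repair. The mutant strain name gives an allele from SJL on the C57BL/10 background, so loss of dysferlin and other SJL sequence carried along with it cannot be told apart. The labels do not say whether replicates came from separate mice, so every p-value rests on the spread of these arrays, and that spread may be technical.

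Before processing, array medians of the deposited intensities ran from 72.8 to 107.1. The QF arrays numbered 2 of both genotypes had the highest medians and a median correlation with the other arrays of 0.876 and 0.866, against 0.926 to 0.959 for the other 10. Residuals of same-numbered arrays of the same muscle correlated at 0.39 to 0.71 in QF, but only at 0.11 to 0.23 in TA. Each genotype comparison was therefore also fitted with the replicate number as a block within muscle. The labels do not say that same-numbered arrays are paired. Block p-values rest on that reading of these same data, which is weak in TA. No probe set carried Dysf as its only symbol, so the genotype labels could not be checked on their own transcript. Of 18 muscle fibre markers on the array, 17 were measured in every group and Myh2 was at the floor. Values below are log2 intensities after quantile normalization, or differences between them (Dysf_null minus Control, or TA minus QF). The array count, 3 a group, limits the precision; a probe set was called at an adjusted p under 0.05 in limma's moderated test over all 10331 probe sets.

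To show the regulatory sequence of the genes on which the results turn, the 250 bases before the RefSeq start site (mouse build GRCm38.p6, written from 5′ to 3′ on the strand of the gene) are given for the lid and receptor subunits with the largest genotype differences in TA, Psmd4, Psmd11, Psmd8 and Psmd12. In QF, Psmd7 (-0.52) and Psmd3 (-0.47) had larger decreases than Psmd8 (-0.44) and Psmd12 (-0.21). Psmb5, the core subunit with the chymotrypsin-like site, is shown beside them as a window that holds the antioxidant response element core. They lie at chr3:95042615-95042864 (minus strand), chr11:80428365-80428614 (plus strand), chr7:29180674-29180923 (minus strand), chr11:107479278-107479527 (plus strand) and chr14:54617996-54618245 (minus strand). All are upstream of the annotated transcript start. Capitals mark, on either strand, the core of the antioxidant response element bound by Nfe2l1 (TGACNNNGC), the NF-Y box (CCAAT) and the ETS box (CCGGAAG).
Psmd4: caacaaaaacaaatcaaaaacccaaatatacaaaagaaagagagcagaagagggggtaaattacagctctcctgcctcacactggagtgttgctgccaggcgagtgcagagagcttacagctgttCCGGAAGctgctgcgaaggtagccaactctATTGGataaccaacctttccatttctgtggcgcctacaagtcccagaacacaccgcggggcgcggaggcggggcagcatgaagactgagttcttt
Psmd11: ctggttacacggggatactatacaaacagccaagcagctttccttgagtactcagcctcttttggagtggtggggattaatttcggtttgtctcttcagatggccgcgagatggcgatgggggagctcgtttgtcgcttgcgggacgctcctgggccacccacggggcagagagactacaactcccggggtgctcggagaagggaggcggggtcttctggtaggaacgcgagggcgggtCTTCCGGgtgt
Psmd8: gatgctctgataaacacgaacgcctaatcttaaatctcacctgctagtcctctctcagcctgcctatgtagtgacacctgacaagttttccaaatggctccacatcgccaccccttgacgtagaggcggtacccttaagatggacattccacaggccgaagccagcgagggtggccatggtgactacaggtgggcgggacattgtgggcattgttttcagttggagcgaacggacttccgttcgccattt
Psmd12: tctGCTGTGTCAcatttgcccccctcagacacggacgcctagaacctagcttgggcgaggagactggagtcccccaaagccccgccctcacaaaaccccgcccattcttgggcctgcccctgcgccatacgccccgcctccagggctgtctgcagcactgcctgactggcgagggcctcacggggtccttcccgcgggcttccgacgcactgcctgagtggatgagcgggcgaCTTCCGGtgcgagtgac
Psmb5: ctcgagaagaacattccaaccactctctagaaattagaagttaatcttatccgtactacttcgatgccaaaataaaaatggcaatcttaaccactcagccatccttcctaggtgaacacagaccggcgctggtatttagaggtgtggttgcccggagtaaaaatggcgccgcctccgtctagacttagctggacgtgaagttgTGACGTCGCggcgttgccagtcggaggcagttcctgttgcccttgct

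The Psmd4 window held an ETS box whose first base lay 125 bases before the start and an NF-Y box at 95 bases. The ETS box of Psmd11 lay 11 bases and that of Psmd12 17 bases before the start, and Psmd12 also held the response element core at 247 bases. None of the 3 letter strings occurred in the 250 bases printed for Psmd8. Over all members, 35 of the 42 genes matched the RefSeq table with 38 windows of 300 bases, which also take in 50 bases after the start. The ETS box was in 17 of these 38 windows (44.7%), against 8.86% of all 32851 windows in the table. It was in 10 of 18 windows of the 19S regulator (55.6%) and in 1 of 12 of the 20S core (8.33%), that of Psma6. The NF-Y box was in 14 of 38 member windows (36.8%, against 37.4% of all), with 6 of 12 in the 20S core and 5 of 18 in the 19S regulator. The response element core was in 6 of 38 (15.8%, against 12.4%): Psmb5, Psmb6, Psmc6, Psmd9, Psmd12 and Psme4. Member windows were richer in G and C than all windows, with medians of 59% and 52.7%, and these shares are descriptions with no test. The medians by box were not tested. The median average genotype difference was -0.19 for 18 probe sets with an ETS box and -0.24 for 22 without, -0.27 with an NF-Y box (13) and -0.14 without (27), and -0.17 with the response element core (7) and -0.22 without (33).

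In QF, proteasome subunits were mostly at lower intensity in the dysferlin-deficient mice, by small amounts. Of the 51 probe sets, 43 had a lower mean in Dysf_null_QF than in Control_QF, with a median difference of -0.30. Over all probe sets tested, 51.5% were lower and the median was -0.01. Members were read on the same 3 arrays a group, so these and later counts of members are not counts of independent observations. In the 20S core 17 of 18 were lower (median -0.33), and in the 19S regulator 21 of 25 (median -0.24). All 3 Dysf_null_QF arrays lay below all 3 Control_QF arrays for 12 members, whereas 3.45% of all probe sets did so, and no member lay wholly above. An unadjusted p under 0.05 in the lower direction was reached by 15 members (background 3.04%) and in the higher direction by none. None was called by limma after adjustment (background 0.155% lower); with the replicate block 7 were called, all lower (background 0.958%). Without both QF arrays numbered 2, 17 of 18 and 21 of 25 stayed below 0, with medians of -0.29 and -0.22.

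In TA the same direction prevailed. There, 37 of 51 members were lower in Dysf_null_TA than in Control_TA, with a median of -0.16 against -0.00 over all probe sets, of which 50.6% were lower. The 19S regulator again had 21 of 25 lower (median -0.25), and the 20S core 14 of 18 (median -0.14). The 20S median was -0.23 with the deposited scaling, where the 19S median was -0.25, and -0.22 without Dysf_null_TA 1. The groups did not overlap for 12 members with Dysf_null_TA lower (background 6.87%) and for 1 with it higher, the weak Psmb4 probe set 98556_at. An unadjusted p under 0.05 was reached by 5 members, all lower (background 2.17%): 4 of 25 in the 19S regulator and 1 of 18 in the 20S core, Psma1. None was called by limma (background 0.155%), and with the replicate block 4 were, all lower (background 0.619%).

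Averaged over both muscles, 42 of 51 members were lower, with a median of -0.22 against -0.01 over all probe sets, of which 52.4% were lower. All 18 probe sets of the 20S core had a negative average, from -0.44 to -0.02 (median -0.25), as did 21 of 25 of the 19S regulator (median -0.23). An unadjusted p under 0.05 was reached by 21 members, all lower (background 3.24%). Psmd11 and Psmd4 were the 2 members called by limma, both lower (background 0.31%), and with the block 13 were called (background 1.88%). The groups did not overlap in either muscle for 5 members (background 0.697%): Psma4, Psma5, Psmc2, Psmd4 and the Psmc3 probe set 93735_f_at.

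**Figure D1:**
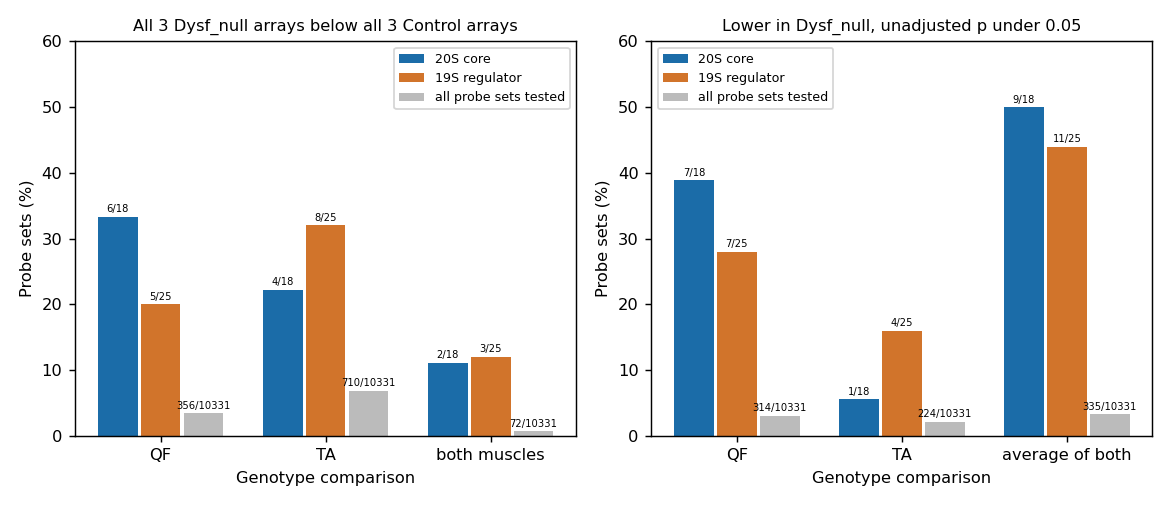
Share of probe sets (%, from 0) of the 20S core, the 19S regulator and all probe sets tested that were lower in Dysf_null, by groups that do not overlap (left) and by an unadjusted limma p under 0.05 (right), in QF, in TA and over both muscles; counts stand above the bars. Both subunit classes stand above the share of all probe sets in each comparison, but the core bar for TA at right is 1 of 18 probe sets, Psma1. Groups did not overlap for 6 of 18 core and 5 of 25 regulator probe sets in QF, and for 4 and 8 in TA.

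Most subunit probe sets were bright, so the same counts were read at like intensity, in bands set after the values were seen. Between a mean log2 intensity of 8 and 10, all 16 core and regulator probe sets were lower in QF (median -0.40), against 50.9% of 2078 other probe sets (median -0.01). Above 10, 17 of 18 were lower in QF (median -0.33), against 47.2% of 614 others (median 0.02), and 18 of 18 in TA (median -0.20), against 50.8%. Below a mean of 6, 3 of 6 were lower in QF and 2 of 6 in TA. Of the 4 regulator probe sets with a positive average, 2 were near the floor. Psmc4 was above the floor on 11 arrays and gave an average difference of 0.32 ± 0.28 (SE), and the Psmd11 probe set 160304_r_at was above it on 10 and gave 0.24 ± 0.47.

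By array, each probe set was set against its own mean over the 12 arrays and the median taken over a class. For the 20S core this median was -0.05, -0.14 and -0.06 on the 3 Dysf_null_QF arrays and 0.17, 0.20 and 0.26 on the Control_QF arrays. It was -0.04, -0.14 and -0.17 in Dysf_null_TA and 0.11, -0.07 and -0.01 in Control_TA. All 3 Control_QF arrays were thus high, while the TA groups overlapped. For the 19S regulator the medians were 0.01, -0.20 and -0.02 in Dysf_null_QF and 0.13, 0.08 and 0.34 in Control_QF, and -0.05, -0.21 and -0.15 in Dysf_null_TA and 0.08, 0.14 and 0.12 in Control_TA. Here the genotypes overlapped in neither muscle. The gap between the classes on an array (19S minus 20S) ran from -0.06 to 0.06 in Dysf_null_QF and -0.12 to 0.08 in Control_QF, and from -0.07 to 0.02 in Dysf_null_TA and -0.03 to 0.21 in Control_TA. The genotypes overlapped in this gap in both muscles, in TA through the array Control_TA 1 alone (-0.03). The gap was not tested, and with 3 arrays a group such an overlap cannot exclude a difference between the classes.

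**Figure D2:**
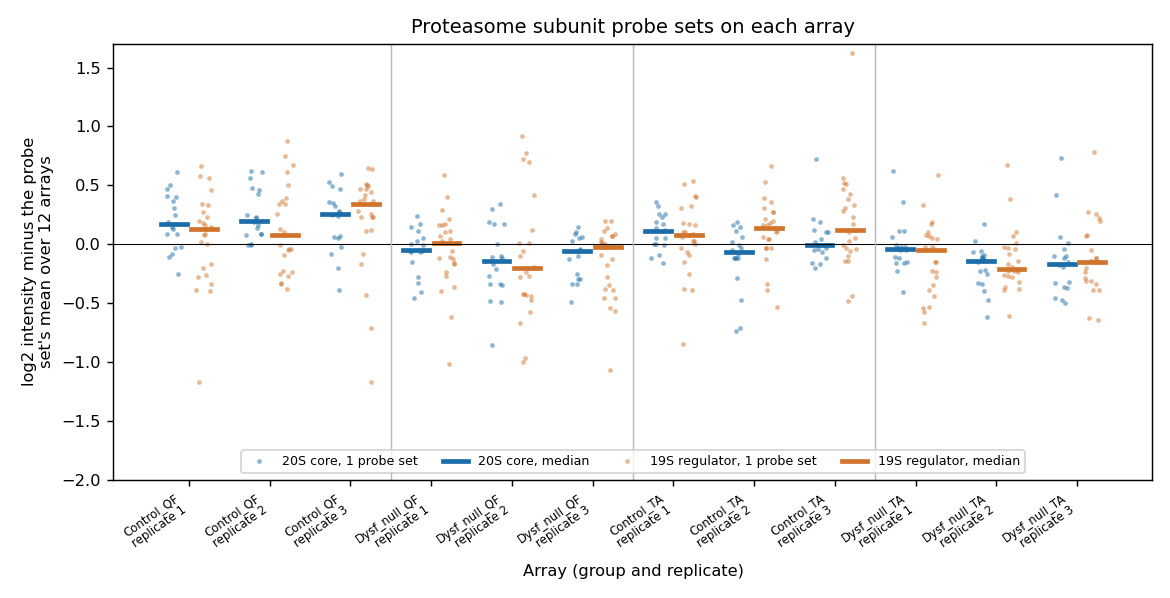
Each point is a probe set of the 20S core (blue) or the 19S regulator (orange) on 1 array, as its log2 intensity minus its mean over the 12 arrays; thick lines are class medians and columns are the arrays in their groups. The Control_QF lines lie at 0.08 to 0.34 and the Dysf_null_QF lines at -0.20 to 0.01, and the 20S lines of the TA groups overlap.

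The alpha ring gave lower values throughout. All 7 Psma probe sets, 1 for each of Psma1 to Psma7, were lower in QF and in TA, with medians of -0.39 and -0.25, and groups did not overlap for 5 of 7 in QF (background 3.45%) and 3 of 7 in TA (background 6.87%). Psma4 read 10.00, 9.19 and 9.92 in Dysf_null_QF and 10.14, 10.19 and 10.37 in Control_QF. It read 10.02, 9.93 and 10.06 in Dysf_null_TA and 10.28, 10.24 and 10.24 in Control_TA. Every mutant array lay below every control array of its muscle, and the lowest value was on Dysf_null_QF array 2. The difference was -0.53 ± 0.18 (SE, n = 3 a group) in QF (limma adjusted p = 0.398), and -0.30 without both QF arrays numbered 2. In TA it was -0.25 ± 0.18.

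Psma5 was likewise apart in both muscles. Its values were 9.92, 9.42 and 9.71 in Dysf_null_QF against 10.08, 10.20 and 10.13 in Control_QF, and 9.61, 9.64 and 9.27 against 9.88, 9.72 and 9.64 in TA. In TA the highest mutant value and the lowest control value coincided at 2 decimals. The average difference was -0.35 ± 0.11 (adjusted p = 0.227). Psma1 had the lowest average of the core, -0.44 ± 0.14 (adjusted p = 0.27, and 0.00857 with the replicate block). It read 8.35, 8.93 and 8.82 in Dysf_null_QF and 8.68, 9.24 and 9.36 in Control_QF, which overlapped, and 8.35, 8.51 and 8.30 in Dysf_null_TA against 8.81, 8.92 and 8.86 in Control_TA, which did not. Psma2 and Psma7 gave -0.45 ± 0.15 and -0.35 ± 0.13 in QF without overlap, and Psma3 an average of -0.26 that was called only with the block (adjusted p = 0.0329). Psma6 gave -0.30 in QF and -0.04 in TA.

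The beta ring carries the protease sites. More of its probe sets were lower in QF than in TA, a contrast between muscles that passed no test for any of them. Of 11 Psmb probe sets, 10 were lower in QF (median -0.30) and 7 in TA (median -0.11). This contrast in counts rested on dim second probe sets that were positive in TA: 98556_at (Psmb4), 161923_at (Psmb1) and 160559_at (Psmb5). With 1 probe set per gene, 13 of 14 genes of the whole 20S core were lower in each muscle (medians -0.33 in QF and -0.17 in TA). Of the 3 subunits with active sites, Psmb6 and the brighter Psmb5 probe set differed little on average. Psmb7 gave -0.28 ± 0.13 in QF, near the core median there, and -0.14 ± 0.13 in TA. Psmb5 averaged -0.07 and -0.17 on its 2 probe sets, Psmb6, the caspase-like subunit, averaged -0.07, and Psmb7, the trypsin-like one, averaged -0.21; none was called. Psmb3, a structural subunit, read 10.71, 10.21 and 10.21 in Dysf_null_QF and 11.15, 10.74 and 10.60 in Control_QF. The groups overlapped through 1 array, each mutant array stood below the control array of its number, and the difference of -0.45 ± 0.18 (adjusted p = 0.569) was called only with the block (0.0339). The bright Psmb4 probe set 98557_f_at read at most 11.31 in Dysf_null_QF and at least 11.48 in Control_QF, without overlap (-0.38 ± 0.12, adjusted p = 0.333). A dimmer one, 98556_at, gave -0.48 in QF and 0.45 in TA. Of the 7 genes with more than 1 tested probe set, Psmd11 alone had both signs in QF, and Psmb1, Psmb4, Psmb5 and Psmd11 did in TA.

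The base of the 19S regulator is built on the Psmc ATPases. Of their 9 probe sets, 8 were lower in each muscle, with medians of -0.24 in QF and -0.21 in TA. Psmc2 read 10.17, 10.10 and 10.36 in Dysf_null_QF and 10.45, 10.56 and 10.67 in Control_QF, and 10.15, 10.07 and 10.06 in Dysf_null_TA against 10.38, 10.34 and 10.25 in Control_TA. The groups did not overlap in either muscle. The differences were -0.35 ± 0.11 in QF (adjusted p = 0.368, and 0.0437 with the block) and -0.24 ± 0.11 in TA. Psmc6 read 11.34, 11.75 and 11.78 in Dysf_null_QF and 12.01, 12.07 and 12.20 in Control_QF, again apart, for -0.47 ± 0.15 (adjusted p = 0.368, and 0.0493 with the block), while TA gave -0.08. The Psmc3 probe sets 93734_i_at and 93735_f_at gave -0.40 ± 0.12 and -0.24 ± 0.11 in QF, both apart, and -0.02 and -0.21 in TA. Psmc1 averaged -0.34 ± 0.12 and Psmc5, on its brighter probe set, -0.14 ± 0.12.

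The largest average differences were in the lid and the ubiquitin receptors. Psmd4, a receptor that binds ubiquitin chains, read 9.90, 9.61 and 9.76 in Dysf_null_QF and 10.50, 10.02 and 10.68 in Control_QF. It read 9.69, 9.67 and 9.83 in Dysf_null_TA and 10.01, 10.24 and 10.50 in Control_TA. All 6 mutant arrays lay below all 6 control arrays. The differences were -0.64 ± 0.18 in QF (adjusted p = 0.204, and 0.0183 with the block) and -0.52 ± 0.18 in TA (0.593, and 0.0648 with the block). The average of -0.58 ± 0.12, 1.5-fold lower, was called (adjusted p = 0.0444).

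Psmd11, a lid subunit that helps hold the regulator on the core, had the lowest values relative to control. Its probe set 160305_at read 8.47, 8.50 and 9.15 in Dysf_null_QF and 9.16, 9.04 and 9.72 in Control_QF, which overlapped through array 3. It read 8.50, 8.82 and 8.77 in Dysf_null_TA and 9.50, 9.74 and 9.64 in Control_TA, which were well apart. The TA difference was -0.93 ± 0.22, 1.91-fold lower (adjusted p = 0.156, and 0.00115 with the block). The QF difference was -0.60 ± 0.22 (adjusted p = 0.492, and 0.00939 with the block). The QF value was -0.39 without Control_QF 3 and -0.82 without Dysf_null_QF 3. The average of -0.76 ± 0.15, 1.7-fold lower, was called (adjusted p = 0.0313). A brighter probe set of the gene, 94796_at, gave 10.27, 10.18 and 9.70 against 10.81, 10.58 and 10.15 in QF and 10.34, 9.95 and 9.61 against 10.64, 10.50 and 10.09 in TA. Those groups overlapped, but each mutant array was below the control array of its number, and the average was -0.46 ± 0.16 (adjusted p = 0.357, and 0.00223 with the block). The dim probe set 160304_r_at went the other way, as given above.

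Both average calls depended on single arrays. Psmd11 stayed called in 3 of the 12 fits that left out 1 array, those without Dysf_null_QF 3, Control_QF 2 or Control_QF 3, and its adjusted p reached 0.106 without Control_TA 2. Psmd4 stayed called in 2, without Control_QF 2 or Control_TA 1, and reached 0.131 without Dysf_null_TA 2. The differences themselves stayed between -0.88 and -0.66 for Psmd11 and between -0.68 and -0.51 for Psmd4. Without both QF arrays numbered 2 they were -0.78 (adjusted p = 0.0553) and -0.64 (0.0219).

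Psmd8 and Psmd12, also lid subunits, stood out in TA. Psmd8 read 8.83, 9.61 and 8.84 in Dysf_null_QF and 9.34, 9.94 and 9.31 in Control_QF, with array 2 of each genotype the highest and the groups overlapping. In TA it read 8.75, 8.57 and 8.55 against 9.36, 9.55 and 9.62, wholly apart. The TA difference was -0.88 ± 0.22, 1.84-fold lower (adjusted p = 0.222, and 0.00436 with the block), and the average -0.66 ± 0.16 (0.0786, and 0.00173 with the block). Psmd12 read 9.04, 8.96 and 9.04 in Dysf_null_TA and 9.50, 9.58 and 9.50 in Control_TA, for -0.51 ± 0.16 (adjusted p = 0.459, and 0.0245 with the block). Its QF values of 9.08, 8.76 and 9.17 against 9.21, 8.95 and 9.47 overlapped.

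**Figure D3:**
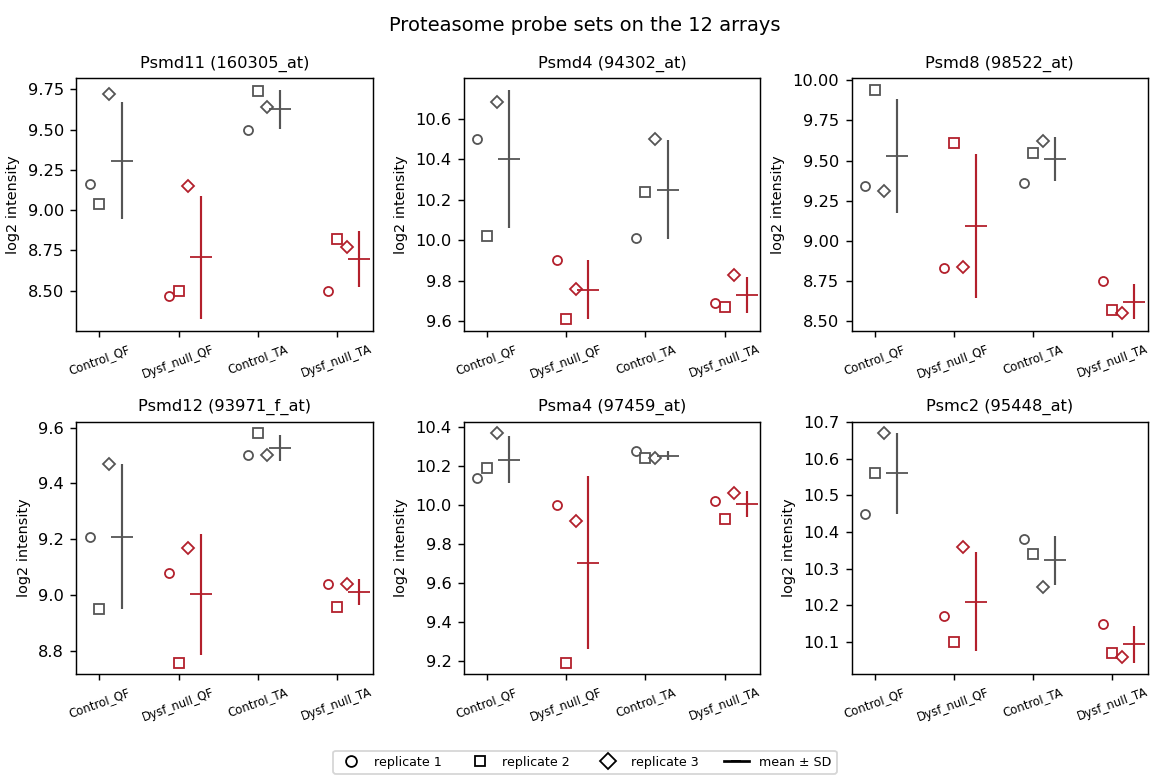
Log2 intensity of 4 Psmd, 1 Psma and 1 Psmc probe sets on every array, with replicate numbers as marker shapes, Control in grey and Dysf_null in red, and the mean ± SD (n = 3) beside each group; each panel has its own axis, which does not start at 0. Psmd4, Psma4 and Psmc2 are apart in both muscles, and Psmd11, Psmd8 and Psmd12 in TA.

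The other Psmd genes had smaller average differences than Psmd4, Psmd8 and the called Psmd11 probe set. Psmd7, which pairs with the lid deubiquitinase, gave -0.52 ± 0.27 in QF, not called without the block (adjusted p = 0.0167 with it). Psmd3 averaged -0.36 and Psmd1, a scaffold of the base, -0.37, each with SE 0.16 to 0.17. The lid deubiquitinase Psmd14 averaged -0.22, Psmd13 -0.21 and Psmd6 -0.11. Psmd2, the partner scaffold of Psmd1, was above the floor on 5 arrays and averaged -0.08. Psmd5, Psmd9 and Psmd10 are assembly factors of the base rather than parts of the finished regulator, and averaged -0.39, 0.04 and 0.14. Leaving those 3 out, 20 of 22 regulator probe sets had a negative average (median -0.25).

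Neither the activators nor the assembly chaperones moved as a class. Psme4, which caps the core in place of the 19S regulator, read 9.77, 8.94 and 9.85 in Dysf_null_QF and 9.95, 9.94 and 10.47 in Control_QF, apart by a small margin, for -0.60 ± 0.24, and gave -0.34 in TA. Psme3, the subunit of a nuclear activator, gave 0.18 ± 0.69 in QF, where arrays numbered 2 read 5.06 and 4.64 and the others 6.84 to 7.18. Of the 5 probe sets of Psmg1 to Psmg4, which help assemble the alpha ring, 3 were lower in QF and 1 in TA, and none had groups apart. Psme3ip1 averaged -0.07.

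**Figure D4:**
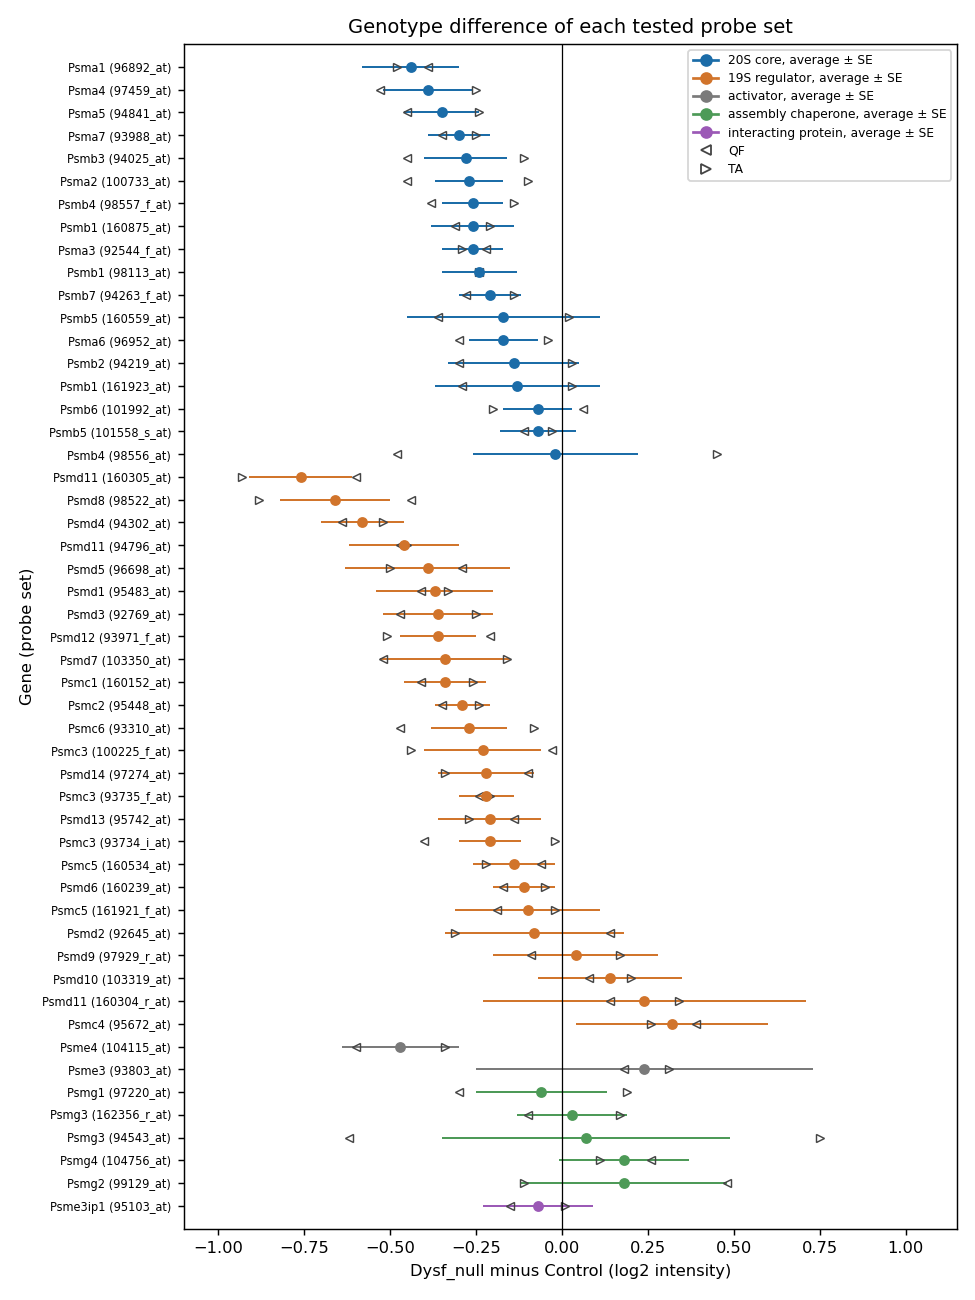
Genotype difference (Dysf_null minus Control, log2) of each of the 51 tested probe sets, grouped by class; circles are the average of both muscles ± SE, and open triangles pointing left and right are QF and TA. Every 20S circle lies below 0 and so do 21 of 25 in the 19S regulator, down to -0.76 for Psmd11, while the chaperones straddle 0.

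Of the 4 subunits left out, Psmb8, Psmb9 and Psme1 had a positive average and Psmb10 a negative one. Limma called none. Psmb8 had an unadjusted limma p under 0.05 in QF, in TA and in the average, and Psmb9 in QF and in the average. Psmb8 read 8.38, 8.71 and 8.02 in Dysf_null_QF and 7.80, 7.08 and 7.63 in Control_QF, apart in TA too, for an average of 0.71 ± 0.16 (adjusted p = 0.0638, and 0.0371 with the block). Psmb9 gave 1.42 ± 0.37 in QF (0.171, and 0.0412 with the block), with 2 Control_QF arrays at the floor, and 0.19 in TA. Psme1 averaged 0.28 ± 0.18 and Psmb10 -0.07 ± 0.23.

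Other genes of the ubiquitin system had a smaller median shift, but they were not matched to the subunits in intensity. Of 53 measured genes on the lists for assembly factors, transcription control, ubiquitin activation, conjugating enzymes, muscle ligases and shuttle factors, 34 had a negative average. Their median was -0.07, against -0.01 over all probe sets, whose share of negative averages is given above. Ubxn4, an adaptor of the ATPase that extracts proteins from the endoplasmic reticulum, was the only one called. It read 7.60, 7.98 and 8.16 in Dysf_null_QF and 8.36, 8.63 and 8.94 in Control_QF, and 7.76, 7.94 and 7.63 against 8.43, 8.58 and 8.37 in TA, apart in both. Its average was -0.71 ± 0.14 (adjusted p = 0.0343), called in 2 of the 12 fits without 1 array (without Dysf_null_QF 3 or Control_QF 1). The conjugating enzyme Ube2g1 averaged -0.35 ± 0.09, the ligase Ubr4 -0.39 ± 0.12 and the ligase scaffold Cul3 -0.33 ± 0.12, and these 3 were called only with the block. Among 8 measured transcription control genes, all 8 were lower in QF (median -0.26, against -0.01 over all probe sets) and 4 in TA. In QF none of them had an unadjusted limma p under 0.05. There the brighter Nfe2l1 probe set and Nfe2l2 were only at -0.06 and -0.08, and Keap1 and Maff were at the floor on some arrays. A dimmer Nfe2l1 probe set gave -0.59 ± 0.33 in QF and 0.22 ± 0.33 in TA, so the size of the Nfe2l1 difference in QF depended on the probe set. Nfe2l1, which drives proteasome genes when proteasome capacity falls short, averaged -0.13 ± 0.15 on its brighter probe set. Foxo3, a driver of muscle atrophy genes, averaged -0.32 ± 0.15. Limma called none of the 8, and 1 (Vcp, lower) had an unadjusted p under 0.05 in the average. The core maturation factor Pomp gave -0.55 ± 0.26 in TA (adjusted p = 1).

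Markers of other cells moved with genotype beside these differences. All 12 measured fibroblast and tendon markers were higher in both muscles, with a median of 1.01 in QF (5 called) and 0.46 in TA (1 called). Their summed linear intensity was 32390 to 45080 in Dysf_null_QF and 19540 to 27360 in Control_QF, and 33530 to 48100 against 24630 to 32000 in TA. Macrophage markers were higher for 11 of 13 in QF (median 0.55), with sums of 4514 to 5263 against 3413 to 3904, and Itgam at the floor; in TA 12 of 13 were higher (median 0.28), with sums of 4294 to 4872 against 3516 to 4254. The exception in TA was Cd68, the only macrophage marker called there, at -1.27 ± 0.19 (limma adjusted p = 0.0104). Red cell markers were called higher for 4 of 5 in TA and for 1 of 5 in QF (Bpgm, 0.72 ± 0.14, limma adjusted p = 0.0355), with 3 of 5 higher at an unadjusted p under 0.05 in QF. In TA the granulocyte markers S100a8 and S100a9 were called higher, whereas S100a9 was called lower in QF. Of 9 measured granulocyte markers, 4 were higher in TA and 3 lower in QF (background 3.04% lower) at an unadjusted limma p under 0.05. The share of all probe sets higher at that p is not given here. Against these directions, the Lcn2 probe set counted here was at -0.19 in TA, and Prtn3 (0.34), Mpo (0.10) and Ltf (0.02) were positive in QF. Each gene was counted on 1 probe set, so the Lcn2 value alone does not settle the direction of that gene. Fat cell, endothelial and lymphocyte markers had none called by limma in either muscle, with 2, 0 and 1 higher at an unadjusted p under 0.05 in TA and 0, 0 and 1 in QF. Muscle fibre markers had none called by limma either (1 lower at an unadjusted p under 0.05 in QF, Ryr1, and 0 in TA), with medians of -0.07 and -0.10 and 13 of 17 negative in each. Their sums were 172400 to 181100 in Dysf_null_QF against 183900 to 189500 in Control_QF, and 163100 to 174600 against 174100 to 183900 in TA. The part of cell makeup in the proteasome differences was not tested, and in whole muscle fewer cells of a type and less RNA per cell cannot be told apart.

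Between muscles, most members had lower quantile-normalized values in TA than in QF in control mice, while in dysferlin-deficient mice they were spread evenly around 0. The direction in control mice depended on the scaling: with the deposited scaling the median was -0.09 for the 20S core (12 of 18 lower) and 0.04 for the 19S regulator (12 of 25 lower), against -0.10 over all probe sets. With quantile normalization in Control, 38 of 51 members were lower in TA, with a median of -0.14 against 0.00 over all probe sets; the 20S core had 16 of 18 lower (median -0.20) and the 19S regulator 17 of 25 (median -0.10). None was called by limma (background 0.736% in either direction), 6 reached an unadjusted p under 0.05 (background 9.86%), all lower, and 8 had groups apart with TA lower (background 5.6%). They were Psmc6 (-0.44 ± 0.15), Psma5 (-0.39 ± 0.15), the bright and the dim Psmb4 probe sets (-0.32 and -0.72), Psmc3 93734_i_at (-0.30), Psma7 (-0.29), Psmc2 (-0.24) and Psmg1 (-0.48). Psmd12 alone was apart in the other direction, at 0.32 ± 0.16. In Dysf_null the median was -0.01, with 27 of 51 lower, none called (background 0.3%) and none at an unadjusted p under 0.05 (background 5.72%).

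Whether the genotype difference depended on the muscle was tested directly. The interaction, the TA genotype difference minus that in QF, was positive for 35 of 51 members (median 0.12 against -0.00 over all). It was positive for 14 of 18 in the 20S core (median 0.23) and 15 of 25 in the 19S regulator (median 0.08). No member was called by limma (background 0.0678%) or reached an unadjusted p under 0.05 (background 3.05%). The smallest unadjusted p was that of Psmc3 93734_i_at, at 0.38 ± 0.18 (limma adjusted p = 1). Psmb4 98556_at followed at 0.92 ± 0.48 and Psmc6 at 0.39 ± 0.22, and Psmd8 ran the other way at -0.45 ± 0.32. Without both QF arrays numbered 2, the 20S median of this interaction was 0.09. A smaller genotype difference of the 20S core in TA than in QF was not shown.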

How the data were processed

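Expression was measured with 12 Affymetrix MG_U74Av2 arrays, 3 in each of 4 groups named by genotype and muscle in the labels. The authors deposited linear intensities, 1 value per probe set and array; how they summarised and scaled them is not given in the sources used here, and their 2% trimmed means of 197.6 to 198.6 are nearly equal on all arrays. The 66 control probe sets were left out. Array medians differed by up to 1.47-fold, over a limit of 1.25, so intensities were quantile normalized, floored at the 25th percentile (23.025, log2 4.53) and taken to log2, and 10331 of 12422 probe sets were kept, those over the floor on 3 or more arrays. Folds near the floor are understated. Gene symbols came from the platform annotation table: 10833 probe sets had 1 symbol, 396 several and 1193 were not in it. Probe sets annotated to both Psme2 and its near copy Psme2b were not members for that reason.

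Group means were fitted over all 12 arrays with limma 3.58.1 (R 4.3.3), an intensity trend, 8 residual degrees of freedom and Benjamini-Hochberg adjustment over all probe sets for each of 6 comparisons. The residuals of same-numbered arrays correlated within each muscle (0.39, 0.71 and 0.66 in QF, 0.18, 0.11 and 0.23 in TA), all over 0.1, which is taken as pairing; the block fit leaves 4 degrees of freedom and its values stand beside the results. Within a genotype across muscles the correlations ran from -0.14 to 0.12, and no pairing was taken there. The highest of these was above the lowest within TA, 0.11, so the pairing in TA is weakly founded. The fit was tested on simulated data. Members, gene lists and promoter letters were chosen with earlier results of these data known. Text names members freely by symbol, with every called member and otherwise the 8 smallest p per comparison first in line, and of the pathway genes every called one and otherwise the 4 smallest. Alternatives covered scaling, floor, filter, trend, array weights, 1 probe set per gene, blocks and left-out arrays. Promoter windows came from RefSeq (GRCm38.p6) and were searched with Python 3.11.15.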

Additional observations from a re-analysis of the deposited data

How the results depend on the processing

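Over 42 results and 30 alternatives no result changed sign while called. In the average of both muscles the 2 members called became 1 with the deposited scaling (Psmd8), 1 with a floor at the 10th percentile, 1 with 1 probe set per gene (Psmd4), 0 with no filter, 0 with no intensity trend, 4 with the replicate block over all 4 groups and 13 with the replicate block within muscle; leaving out single arrays gave 0 to 2. In QF the 0 called became 7 with the block within muscle and stayed 0 without any single array. In TA the 0 called became 4 with array weights, 1 with the block over all 4 groups, 4 with the block within muscle, 1 without both QF arrays numbered 2 and 2 with only the TA arrays, and stayed 0 without any single array. The block changed no other count of members called. Over all probe sets the called counts also depended on the setting, from 47 in QF (0 to 273), 42 in TA (14 to 192) and 113 in the average (56 to 474).

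The 20S median in QF kept between -0.36 and -0.29 under every alternative. The 19S median in QF moved from -0.24 to -0.35 for probe sets above the floor on all 12 arrays, -0.38 without probe sets of the types _r, _f, _i and _s and -0.35 without those at or below a mean log2 of 6, these last 2 chosen after seeing the data, and ran from -0.34 to -0.19 without single arrays. In TA the 20S median moved from -0.14 to -0.23 with the deposited scaling and ran from -0.22 to -0.12 without single arrays. With the deposited scaling the muscle difference in Control gave -0.09 (20S) and 0.04 (19S), and the interaction of the 20S core 0.14. Array weights gave 0.10 (20S) and -0.04 (19S) for the interaction and -0.09 for the 20S muscle difference in Dysf_null, and leaving out both QF arrays numbered 2 gave 0.09 and -0.06 for the 20S core in these 2. Without single arrays the 20S interaction ran from 0.10 to 0.27 and the 20S muscle difference in Dysf_null from -0.06 to 0.05. The cause of these shifts was not tested. Signal over background limits the 6 core and regulator probe sets with means at or below log2 6, and 3 arrays a group limit differences of the size seen here.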
